A study of Mus musculus with 48 samples.

Results

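The 10 genes described here encode the mouse eIF4F complex, its cofactors and the eIF4E-binding proteins. They are Eif4e, Eif4a1, Eif4a2, Eif4g1, Eif4g2, Eif4g3, Eif4b, Eif4h, Eif4ebp1 and Eif4ebp2, picked by name out of 50600 genes listed in the counts, and all 10 were among the 13889 genes kept for testing after removal of low counts. Their mRNAs were counted in the mPDAC line, derived from pancreatic ductal adenocarcinoma of the mouse and labelled FVB/N x C57BL6 and 8-week-old. Of 6 cultures, 3 were treated for 48 h with 50 µM N6L, an antagonist of the nucleolar protein nucleolin, and 3 were non-treated (NT, cultures 1, 2 and 4). From each culture, polyadenylated RNA was sequenced from the cytoplasmic lysate and from the pooled polysomes of a sucrose gradient of the same lysate, which had been cleared of nuclei and mitochondria, so 4 groups of 3 libraries were compared. All cells are of 1 line, and the sources used here name no vehicle for the NT cultures.

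eIF4F is the complex that brings the ribosome to a capped mRNA. Eif4e encodes the subunit that holds the cap, Eif4g1 and Eif4g3 encode scaffolds that join it to the ribosome-bound factor eIF3, and Eif4a1 and Eif4a2 encode RNA helicases that unwind the 5′ leader with the help of eIF4B and eIF4H. The 4E-BPs, products of Eif4ebp1 and Eif4ebp2, bind eIF4E at the surface that eIF4G uses and keep the complex from forming, until phosphorylation by the kinase mTOR releases them. Eif4g2 encodes a relative of eIF4G that lacks the eIF4E-binding part. The counts measure mRNA, not the protein or its phosphorylation.

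The scaffolds and the 4E-BPs compete through a short shared peptide, the eIF4E-binding motif, and the stretches that encode it are shown because they mark the members that bind eIF4E through it. The longest coding model of each gene in GENCODE vM21 (GRCm38) was searched for the motif in a tight form built from known members, a tyrosine, an aspartate, a basic residue, a lysine or glutamate, then phenylalanine, leucine and a leucine or methionine. It was found in Eif4g1, Eif4g3, Eif4ebp1 and Eif4ebp2, in 4 of the 10 members, and in 5 of 21592 coding genes searched (0.0232%), the remaining gene being Eif4ebp3. Eif4g2 and the other members held no match. Since the form was built from such genes, its presence in them was fixed beforehand. Its rarity therefore does not show which genes bind eIF4E, and Cyfip1, an eIF4E-binding protein, is not among the 5. Each run of 27 bases is coding sequence, 5′ to 3′, with the 7 motif codons in capitals.
Eif4g1 (exon 12 of 32, chr16:20681218-20681244, + strand): cgtTATGACAGAGAATTCCTGCTGggc
Eif4g3 (exon 14 of 34, chr4:138156647-138156673, + strand): cagTATGACCGGGAGTTCCTACTGgac
Eif4ebp1 (exon 2 of 3, chr8:27273334-27273360, + strand): atcTATGACCGGAAATTTCTGATGgag
Eif4ebp2 (exon 2 of 3, chr10:61435066-61435092, - strand): attTATGACCGAAAGTTTCTGTTGgac
The Eif4g1 and Eif4g3 stretches encode the same residue at 7 of 7 codons and share 17 of 21 bases, and those of both 4E-BPs share 18 of 21 bases and 6 of 7 residues. Over the whole coding sequence, Eif4a1 and Eif4a2 were identical at 78% of aligned bases, Eif4ebp1 and Eif4ebp2 at 64.7% and Eif4g1 and Eif4g3 at 61.9%. The longest run of bases shared by the models of a pair was 20 for the helicases, 19 for the scaffolds and 14 for the 4E-BPs.

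The libraries held 19519911 to 44972333 counts each, and the members between 528 counts (Eif4g3 in the polysomes of N6L culture 3) and 64798 counts (Eif4b in the cytoplasm of N6L culture 2) in a library. Levels below are CPM, counts brought to a common library total with scaling by the TMM method. They give each mRNA's share among all mRNAs sequenced, so a change common to all does not appear, and fewer cells and less RNA per cell cannot be told apart. Keratins of ductal epithelium were high in every library (Krt18 from 2688 to 4503 CPM, Krt8 from 2036 to 3356 CPM), whereas the epithelial marker Epcam lay between 0.0349 and 0.301 CPM. Insulin and glucagon mRNAs and the acinar Cpa1 and Amy2a5 were at 0 in all 12 libraries, the acinar-list gene Cela1 at 27.6 to 82.7 CPM, and fibroblast, leukocyte and endothelial markers at or under 2.03 CPM. For 3 technical replicates, the title says N6L culture 2 cytoplasm and the description says sample 1. They were kept with culture 2, and no call on a member changed when they were left out.

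Per kilobase of exon, the members spanned a wide range of levels. The length used is the union of all annotated exons, which lowers some genes more than others. It was 4334 bases for Eif4a1, against 1774 in its longest coding model. For Eif4ebp1 it was 2196 against 1997 bases, and for Eif4b 4468 against 3854. For Eif4a2 it was 5338 against 1227 bases and for Eif4g3 11063 against 5289, where the model holds coding bases alone. The order of the members therefore holds for this length only. In NT cytoplasm, Eif4ebp1 mRNA stood at 269.8 ± 49.6 CPM per kilobase (SD, n = 3), Eif4b at 204 ± 29.8 and Eif4a1 at 192 ± 14.3, and the cultures of these 3 genes overlapped from each to the next. Below them, Eif4g2 (80.2 ± 21.8), Eif4h (68.7 ± 0.655) and Eif4g1 (67.3 ± 7.92) again overlapped. With this length, Eif4a2 stood apart at 38.1 ± 9.56 CPM per kilobase. Eif4ebp2 (23.1 ± 0.509) and Eif4e (22.9 ± 3.71) were alike in level, and Eif4g3 was lowest at 7.77 ± 0.288. The mRNA of the cap-binding subunit itself was thus among the least abundant of the complex per kilobase of this length. In N6L cytoplasm the order differed at the top, where Eif4b (308 ± 22.7) and Eif4a1 (170.5 ± 3.08) lay above Eif4ebp1 (121 ± 10.3), without overlap between these 3 genes.

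**Figure D1:**
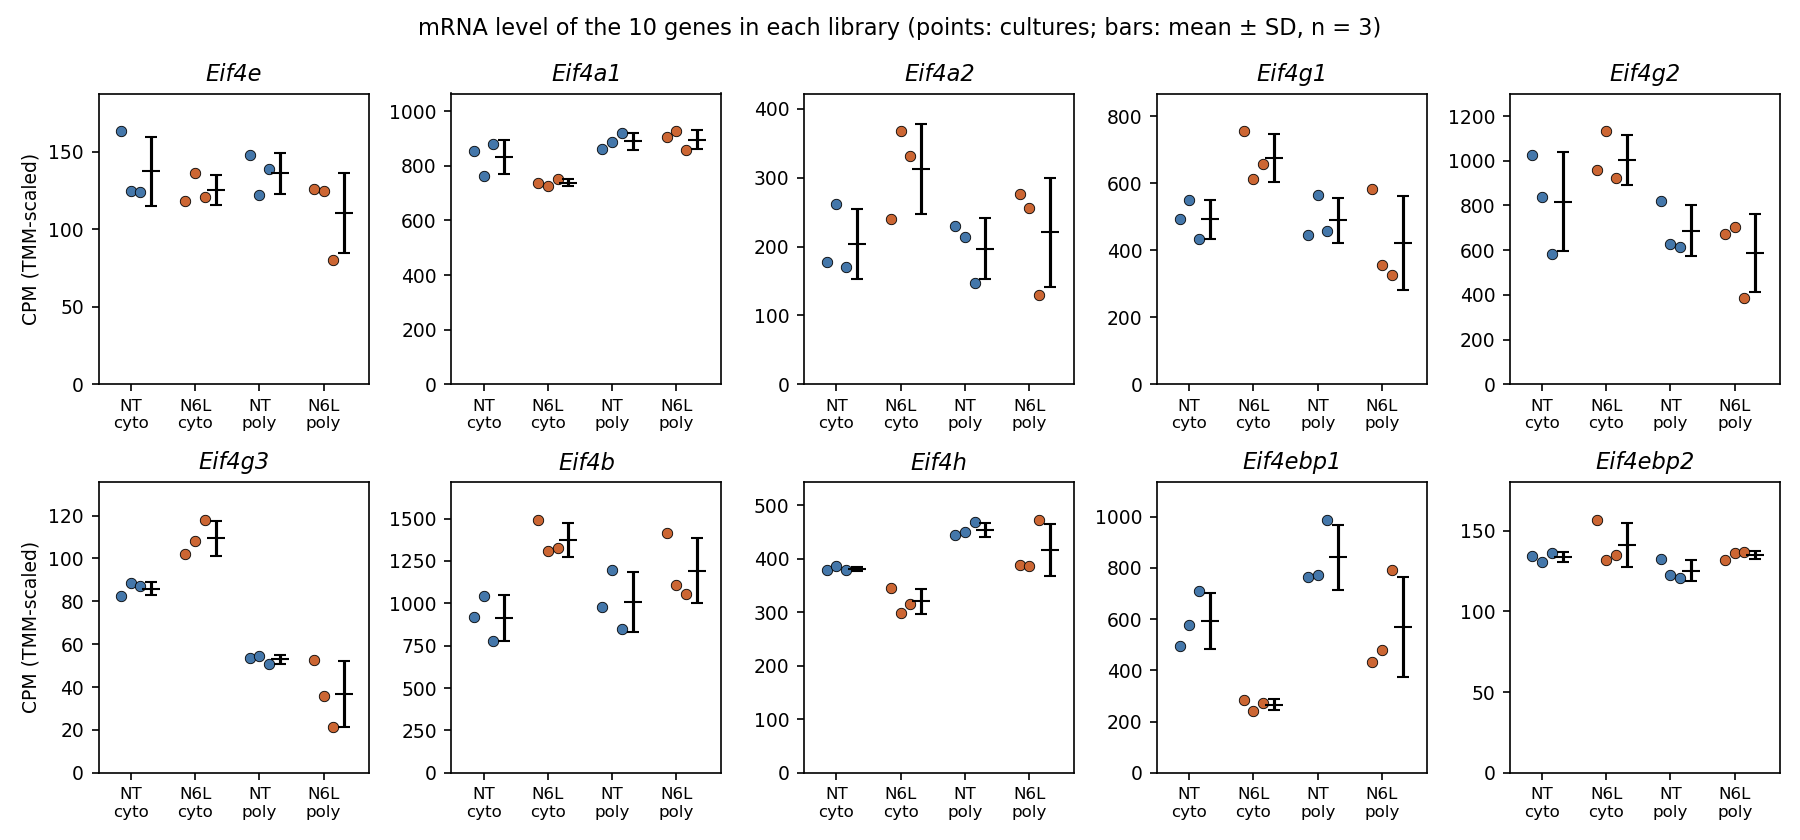
TMM-scaled CPM (vertical axes, starting at 0) of each of the 10 genes in the cytoplasm and the polysomes of NT (blue) and N6L-treated (orange) cultures, with 1 point per culture and the mean ± SD of 3 cultures beside them. In the cytoplasm the N6L points of Eif4ebp1 (241 to 284 CPM) lie below all NT points (493 to 709 CPM) and those of Eif4b (1308 to 1492 CPM) above all NT points (778 to 1044 CPM).

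The first question was which of these mRNAs changed in the cytoplasm under N6L. Eif4ebp1, the mRNA of the 4E-BP that is the classical target of mTOR, fell, and Eif4b, the mRNA of the helicase cofactor, rose. The other 8 members did not pass the test. These 2 of 10 members compare with 28.3% of all genes tested (14.5% higher and 13.8% lower; edgeR's quasi-likelihood test, Benjamini-Hochberg adjusted p under 0.05), and the median log2 fold change was 0.19 over the members and 0.04 over all genes.

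Eif4ebp1 (ENSMUSG00000031490, chromosome 8, 27260329 to 27276674, GRCm38) was at 493, 575 and 709 CPM in the cytoplasm of NT cultures 1, 2 and 4 and at 284, 241 and 273 CPM in N6L cultures 1, 2 and 3. Every N6L culture was below every NT culture. The log2 fold change was -1.16 (SE 0.22, adjusted p = 0.00328 by edgeR), a level 0.449 times that of NT cultures. The call was kept under 16 of 16 alternative settings, with log2 fold changes between -1.27 and -0.97. Eif4ebp2 (ENSMUSG00000020091, chromosome 10, 61428491 to 61452661) did not follow it, at 131 to 136 CPM in NT and 132 to 157 CPM in N6L cytoplasm (log2 fold change 0.08, SE 0.13, adjusted p = 0.678 by edgeR).

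Eif4b (ENSMUSG00000058655, chromosome 15, 102073773 to 102097173) was at 917, 1044 and 778 CPM in NT and at 1492, 1308 and 1326 CPM in N6L cytoplasm. The 2 groups did not overlap, and the log2 fold change was 0.59 (SE 0.17, adjusted p = 0.0218 by edgeR). The adjusted p was over 0.05 without NT culture 1, NT culture 4, N6L culture 1 or N6L culture 2, up to 0.0938, and under 0.05 without NT culture 2 (0.0204) or N6L culture 3 (0.0279), by edgeR in each case. Log2 fold changes ran from 0.46 to 0.73 over all alternatives. Eif4h (ENSMUSG00000040731, chromosome 5, 134619721 to 134639490), the other helicase cofactor, lay at 379 to 385 CPM in NT and 299 to 346 CPM in N6L cytoplasm, without overlap, but its log2 fold change of -0.25 (SE 0.13) did not pass (adjusted p = 0.160 by edgeR).

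The cap-binding subunit and the main helicase differed little in the cytoplasm. Eif4e (ENSMUSG00000028156, chromosome 3, 138526179 to 138559696) was at 163, 125 and 124 CPM in NT and at 118, 136 and 121 CPM in N6L cultures, which overlapped (log2 fold change -0.13, SE 0.18). Eif4a1 (ENSMUSG00000059796, chromosome 11, 69666936 to 69672423) was at 763 to 881 CPM in NT and 727 to 753 CPM in N6L cytoplasm (log2 fold change -0.17, SE 0.12). Its paralog Eif4a2 (ENSMUSG00000022884, chromosome 16, 23107444 to 23114136) had the larger estimate, 0.62 (SE 0.28), from 178, 262 and 170 CPM to 240, 367 and 332 CPM, but the groups overlapped and the adjusted p was 0.101 by edgeR. Eif4a2 overlaps Rfc4 on the opposite strand, which had 876 to 2209 counts, and the strand setting of the counting is not given in the sources used here.

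The estimates of the 3 scaffold genes were above 0 in the cytoplasm. Eif4g1 (ENSMUSG00000045983, chromosome 16, 20668313 to 20692884) was at 433 to 549 CPM in NT and 613 to 754 CPM in N6L cultures, without overlap (log2 fold change 0.46, SE 0.21, adjusted p = 0.105 by edgeR). Eif4g3 (ENSMUSG00000028760, chromosome 4, 137993022 to 138208508) was at 82.4 to 88.5 CPM in NT and 102 to 118 CPM in N6L cultures, also without overlap (0.35, SE 0.23). Eif4g2 (ENSMUSG00000005610, chromosome 7, 111067750 to 111083030) ranged from 583 to 1025 CPM in NT and from 924 to 1131 CPM in N6L cultures, which overlapped (0.30, SE 0.24). In all, 6 of 10 members did not overlap between treatments in the cytoplasm, as did 54.9% of all genes tested. When libraries were adjusted for GC content and transcript length, 5 of 10 members passed in the cytoplasm (32.1% of all genes): Eif4a1 (-0.31), Eif4e (-0.39) and Eif4h (-0.40) were then lower besides the 2 above, and the estimates of Eif4g2 and Eif4g3 turned to -0.13 and -0.05, past no limit.

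**Figure D2:**
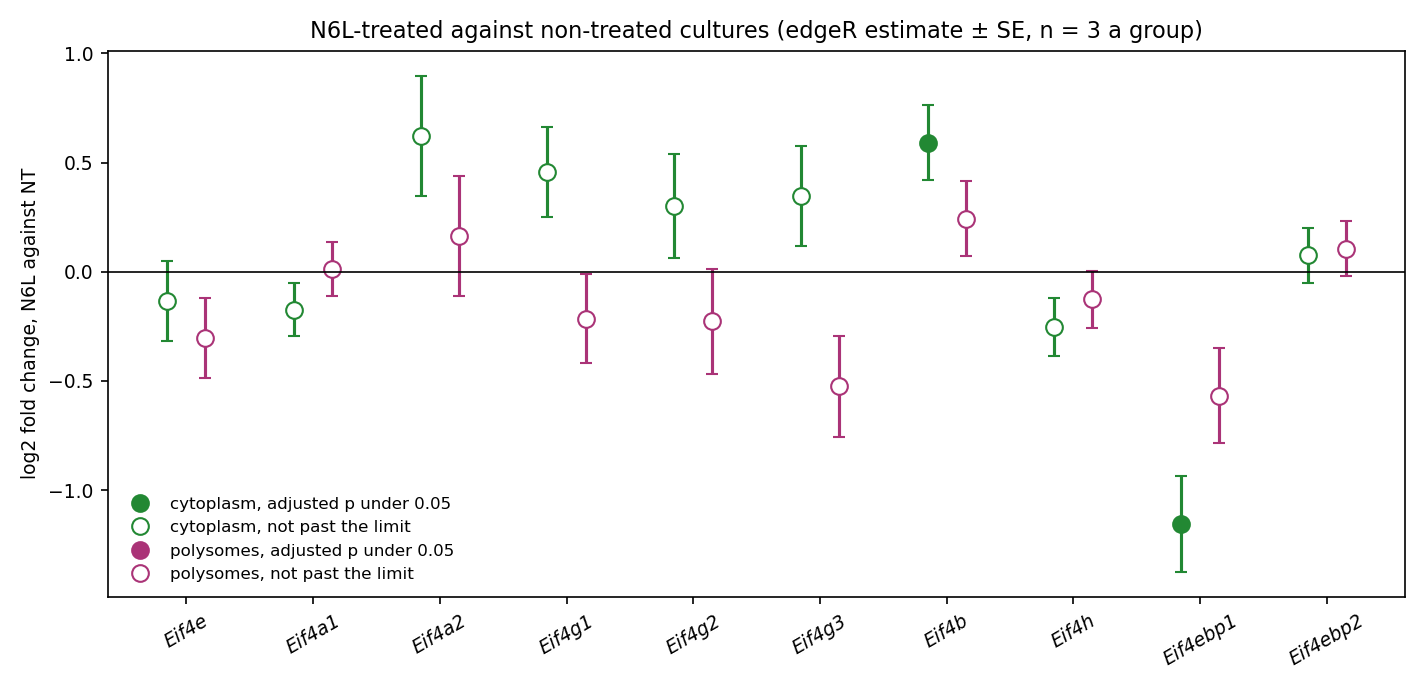
Log2 fold change of N6L-treated against NT cultures for each gene (vertical axis, edgeR estimate with bars of ± 1 SE, 3 cultures a group) in the cytoplasm (green) and the polysomes (purple), filled where the adjusted p was under 0.05. Only the cytoplasmic points of Eif4b (0.59) and Eif4ebp1 (-1.16) are filled.

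In the polysomes, the same comparison asks how the share of each mRNA among all polysomal mRNAs changed, not its amount on polysomes. None of the 10 members passed, against 9.67% of all genes tested by edgeR. At an unadjusted p under 0.05 there were 2 members, Eif4ebp1 and Eif4g3, against 26.5% of all genes, and DESeq2 called 0 of 10, against 14.6% of all genes. In 0 of 10 members were the N6L and NT cultures apart, against 25.6% of all genes.

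Polysomal Eif4ebp1 was at 766, 772 and 987 CPM in NT cultures and at 433, 480 and 791 CPM in N6L cultures, N6L culture 3 lying within the NT range. The log2 fold change was -0.57 (SE 0.22, adjusted p = 0.112 by edgeR), and it was -0.88 and passed without N6L culture 3. Polysomal Eif4g3 was at 53.6, 54.6 and 50.6 CPM in NT and at 52.6, 36.0 and 21.6 CPM in N6L cultures 1, 2 and 3, with a log2 fold change of -0.53 (SE 0.23, adjusted p = 0.162 by edgeR) that passed without N6L culture 1 (-0.88). Eif4a1 had the estimate nearest to 0, at 861 to 921 CPM in NT and 858 to 926 CPM in N6L polysomes (0.01, SE 0.12). Eif4e was at 148, 122 and 139 CPM in NT and at 126, 125 and 80.4 CPM in N6L polysomes (-0.30, SE 0.18). The remaining estimates ran from -0.23 for Eif4g2 to 0.24 for Eif4b.

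Polysome-to-cytoplasm ratios compare the share of an mRNA in both fractions of a culture. In NT cultures 0 of 10 members passed, against 0.209% of all genes. Eif4g3 and Eif4ebp1 had an unadjusted p under 0.05, as did 13.4% of all genes, and DESeq2 called 0 of 10 members against 1.97% of all genes. The log2 ratios of Eif4g3 were -0.62, -0.70 and -0.78 in NT cultures 1, 2 and 4 (edgeR log2 fold change -0.70, SE 0.23, adjusted p = 0.218). Those of Eif4ebp1 were 0.63, 0.42 and 0.48 (0.51, SE 0.22, adjusted p = 0.336 by edgeR). Thus the lowest-level scaffold and the most abundant 4E-BP already lay at the opposite ends of the members without treatment, though neither passed. The ratios of Eif4g1 were close to 0, at -0.15, 0.04 and 0.07.

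In N6L cultures, 5 of 10 members differed between polysomes and cytoplasm, against 39% of all genes tested. The 3 scaffold genes Eif4g1, Eif4g2 and Eif4g3 were lower in the polysomes (20.6% of all genes were), and Eif4ebp1 and Eif4h were higher (18.4% of all genes were). The median log2 fold change was -0.19 over the members and 0.03 over all genes.

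Eif4g3 had the lowest ratio of the members. Its log2 ratios were -0.96, -1.58 and -2.45 in N6L cultures 1, 2 and 3, all below the NT cultures, and the edgeR log2 fold change was -1.57 (SE 0.23, adjusted p = 0.00427). Eif4g1 had ratios of -0.37, -0.78 and -1.02 and a log2 fold change of -0.68 (SE 0.21, adjusted p = 0.0196 by edgeR). Eif4g2 had ratios of -0.51, -0.68 and -1.27 and a log2 fold change of -0.77 (SE 0.24, adjusted p = 0.0219 by edgeR). In all 3 genes the ratio was nearest to 0 in culture 1 and farthest in culture 3.

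Eif4ebp1 lay the other way, with log2 ratios of 0.60, 1.00 and 1.54 in N6L cultures 1, 2 and 3 and a log2 fold change of 1.10 (SE 0.22, adjusted p = 0.00487 by edgeR), a polysomal level 2.14 times the cytoplasmic one. Eif4h, at ratios of 0.17, 0.37 and 0.58, had a log2 fold change of 0.38 (SE 0.13, adjusted p = 0.0360 by edgeR). Eif4a1 (0.28, SE 0.12) did not pass but did in 4 of 17 alternatives. Among them was the fit with the culture as a block (adjusted p = 0.0326 by edgeR), where 6 of 10 members passed, against 53.7% of all genes. Eif4e (-0.18, SE 0.18), Eif4a2 (-0.50, SE 0.28), Eif4b (-0.20, SE 0.17) and Eif4ebp2 (-0.06, SE 0.13) did not pass.

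These calls differed in how firmly they stood. Eif4ebp1 and Eif4g3 passed under 17 of 17 alternatives, with log2 fold changes of 0.73 to 1.31 and of -1.97 to -1.18. The calls on Eif4g1, Eif4g2 and Eif4h were lost without N6L culture 2 and without N6L culture 3, leaving 2 of 10 members each time. Calls fell over all genes too, from 39% to 8.22% without culture 2 and to 11.7% without culture 3. The call on Eif4h was lost in 7 of 17 alternatives in all, also with library totals alone, without a filter on low counts, with the 2 groups alone and without NT culture 1 or 2 (adjusted p up to 0.233 by edgeR). The ratio of N6L culture 3 was farther from 0 than that of any of the other 5 cultures in 8 of 10 members, as in 64.2% of all genes tested. With the adjustment for GC content and transcript length, 6 of 10 members passed (22% of all genes). Eif4g1 (-0.57), Eif4g3 (-1.18), Eif4ebp1 (0.77) and Eif4h (0.34) kept their calls, Eif4a1 (0.40) and Eif4e (0.42, turned from -0.18) gained one, and Eif4g2 (0.11) lost its call and its direction. Pooled over the annotated transcripts of a gene, GC content was lowest in Eif4g2, Eif4a2 and Eif4e among the members, at 43.4%, 41.5% and 43.1%. It was 48.8% to 54.6% in the others.

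**Figure D3:**
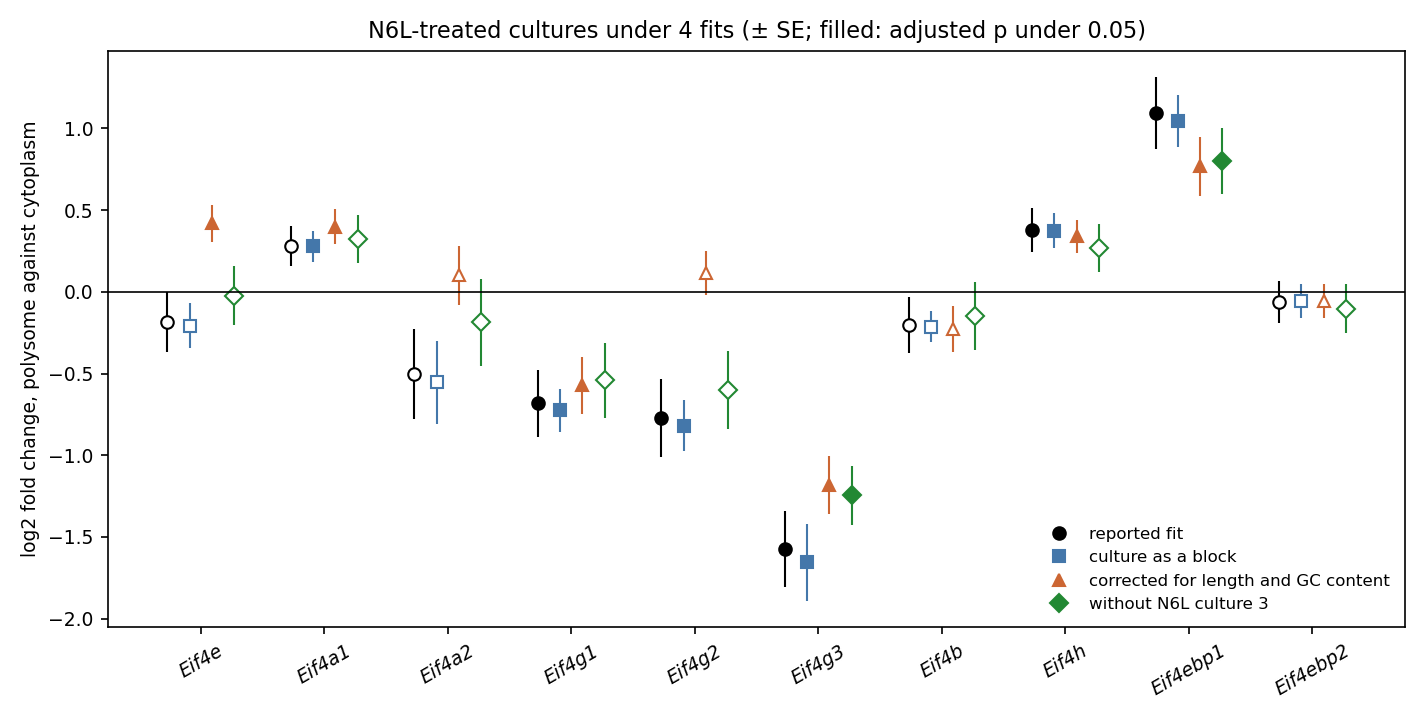
Log2 fold change of polysome against cytoplasm in N6L-treated cultures (vertical axis, edgeR estimate with bars of ± 1 SE) for each gene under 4 fits, filled where the adjusted p was under 0.05. Eif4g3 and Eif4ebp1 are filled in all 4 fits, and Eif4g2 moves from -0.77 to 0.11 with the adjustment for GC content and length.

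The translational index (TI) is the N6L log2 ratio minus the NT log2 ratio and tests whether this ratio of shares changed. By edgeR 0 of 10 members passed, against 0% of all genes tested, and DESeq2 called 0 of 10 as well, against 0% of all genes. At an unadjusted p under 0.05 there were 2 members, Eif4g3 and Eif4g1, against 7.73% of all genes. With a block for each culture there were 5 (Eif4g1, Eif4g2, Eif4g3, Eif4b and Eif4ebp1) against 21.6% of all genes, and 0 of 10 passed after adjustment. Standard errors were then smaller, for example 0.13 for Eif4b (-0.35), 0.22 for Eif4g2 (-0.60) and 0.22 for Eif4ebp1 (0.53). Therefore the calls in N6L cultures and their lack in NT cultures do not show that the ratios differ between the treatments.

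The index of Eif4g3 was -0.87 (SE 0.32, adjusted p = 0.555 by edgeR), that of Eif4g1 -0.67 (SE 0.29), that of Eif4g2 -0.53 (SE 0.34) and that of Eif4ebp1 0.59 (SE 0.31). With the adjustment for GC content and length, the index of Eif4g2 was -0.03 (SE 0.19). Those of Eif4g3, Eif4g1 and Eif4ebp1 were then -0.57, -0.57 and 0.41. For 4 of 10 members N6L and NT ratios did not overlap, as for 29.7% of all genes tested, and all 4 were lower with N6L: Eif4g1, Eif4g2, Eif4g3 and Eif4b. The ratios of Eif4b were 0.09, 0.20 and 0.13 in NT and -0.08, -0.24 and -0.33 in N6L cultures (index -0.35, SE 0.24). An exact two-sided permutation test of 3 against 3 cultures cannot give a p below 0.1. The ratios of Eif4ebp1 overlapped, since that of N6L culture 1 (0.60) was below that of NT culture 1 (0.63). The index of Eif4a2 was -0.46 (SE 0.39, adjusted p = 0.607 by edgeR), and its ratios overlapped between treatments. The indices of Eif4e (-0.17, SE 0.26), Eif4a1 (0.18, SE 0.17), Eif4h (0.13, SE 0.19) and Eif4ebp2 (0.03, SE 0.18) were smaller than their errors or close to them.

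**Figure D4:**
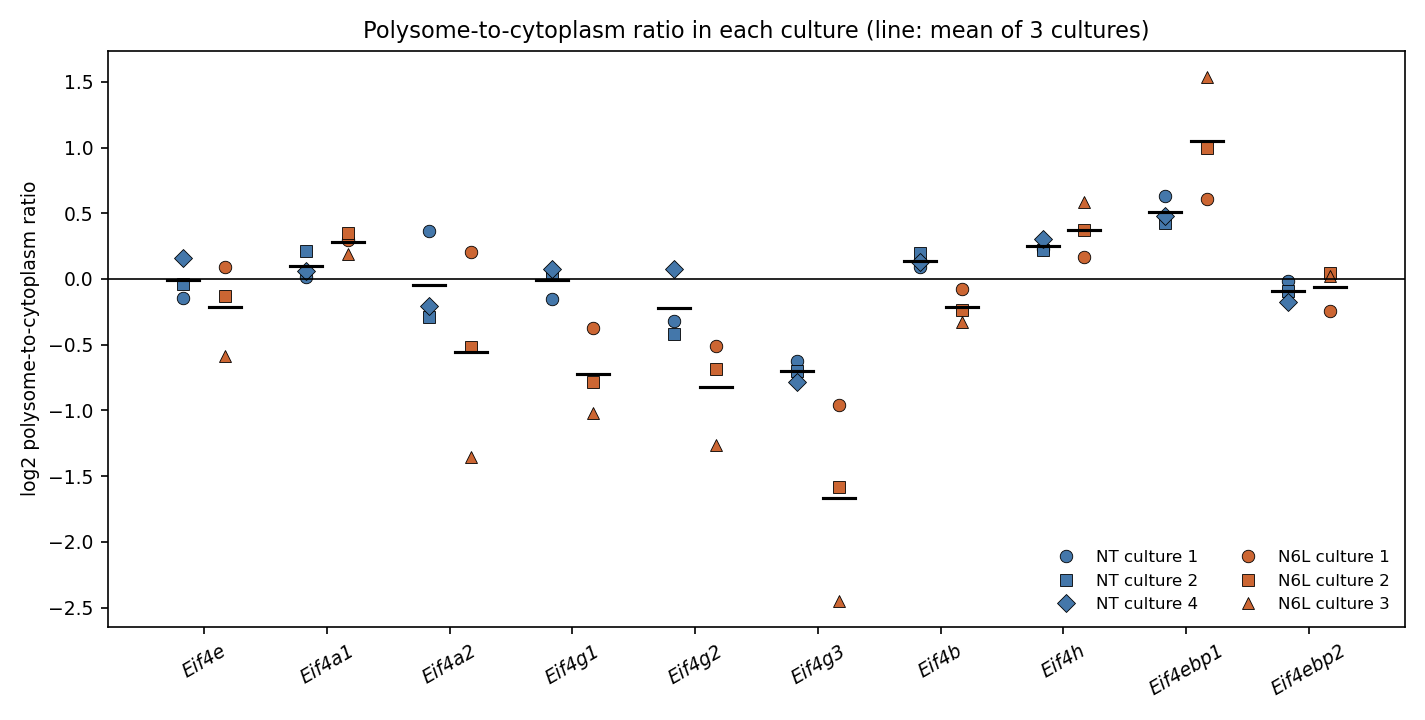
Log2 polysome-to-cytoplasm ratio (vertical axis) of each gene in the 3 NT (blue) and 3 N6L-treated (orange) cultures, 1 symbol per culture number, with a line at the mean of each treatment. The ratios of Eif4g1, Eif4g2, Eif4g3 and Eif4b do not overlap between treatments, and N6L culture 3 lies at the extreme for Eif4g3 (-2.45) and Eif4ebp1 (1.54).

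Ratios between members within a library do not depend on how libraries are scaled, and they show the balance of the inhibitor and the subunits at the mRNA level. They were not adjusted for GC content and transcript length, on which they can depend. With that adjustment, cytoplasmic log2 fold changes were -0.97 for Eif4ebp1 (-1.16 without), -0.39 for Eif4e (-0.13 without) and -0.095 for Eif4ebp2 (0.08 without). Cytoplasmic Eif4ebp1 mRNA stood at 8.28, 12.6 and 15.6 times Eif4e mRNA per kilobase in NT cultures 1, 2 and 4 and at 6.58, 4.83 and 6.17 times in N6L cultures 1, 2 and 3. The 2 groups did not overlap, and the mean log2 ratio differed by -1.02 (N6L minus NT). In the polysomes the ratio was 14.2, 17.3 and 19.5 in NT and 9.42, 10.5 and 26.9 in N6L cultures, where culture 3 lay above all NT cultures and the other 2 below them.

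The ratio of the 4E-BP mRNAs also differed in the same cytoplasmic libraries. This follows from the fall of Eif4ebp1 beside an Eif4ebp2 that differed little, so it is no separate result. Eif4ebp2 mRNA was 0.103, 0.0861 and 0.0729 times Eif4ebp1 mRNA in NT and 0.209, 0.207 and 0.187 times in N6L cytoplasm, without overlap (2.32-fold). In the polysomes, the N6L ratios of 0.116, 0.108 and 0.0655 reached into the NT range of 0.0464 to 0.0658. The helicase ratio, Eif4a2 to Eif4a1, was 0.201 ± 0.0672 in NT and 0.344 ± 0.0736 in N6L cytoplasm (SD, n = 3 each), with overlap. The level of this ratio depends on the exon lengths used, but its fold difference between treatments does not. The scaffold ratios differed less: Eif4g3 to Eif4g1 was 0.117 ± 0.0142 in NT and 0.108 ± 0.0163 in N6L cytoplasm, and Eif4g2 to Eif4g1 was 1.19 ± 0.275 and 1.08 ± 0.216. In the polysomes, Eif4g3 to Eif4g1 was lower than in the cytoplasm in both treatments, at 0.0721 ± 0.00802 in NT and 0.0568 ± 0.0117 in N6L cultures.

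**Figure D5:**
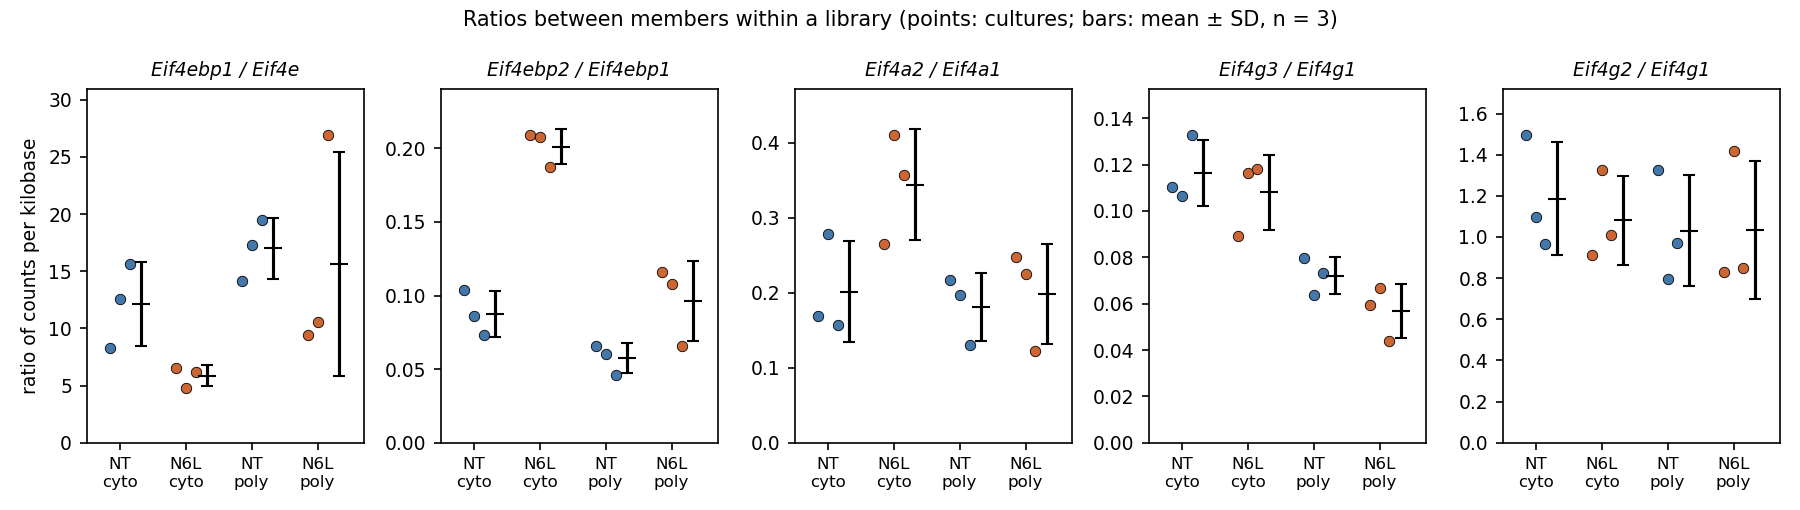
Ratios of counts per kilobase between pairs of members within each library (vertical axes, starting at 0) in NT (blue) and N6L-treated (orange) cultures, with 1 point per culture and the mean ± SD of 3 cultures. In the cytoplasm the N6L points of Eif4ebp1 to Eif4e (4.83 to 6.58) lie below and those of Eif4ebp2 to Eif4ebp1 (0.187 to 0.209) above all NT points.

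Of 22 partners and regulators of the complex, 21 could be tested, and Eif4ebp3, the third 4E-BP, had 0 to 8 counts a library. In the cytoplasm 4 were higher and 2 lower with N6L, among all genes 14.5% and 13.8%. Those higher were Ddx3x, an RNA helicase of translation initiation (1.09, SE 0.28), Gigyf2, a partner of the repressive cap-binding protein 4EHP (1.09, SE 0.29), Pdcd4, an inhibitor of eIF4A (0.87, SE 0.27), and Mtor, the kinase of the 4E-BPs (0.69, SE 0.17). Those lower were Eif4a3, the helicase of the exon junction complex (-0.49, SE 0.17), and Eif4e2, which encodes 4EHP (-0.47, SE 0.16). Mtor went from 31.2 ± 3.68 to 50.3 ± 3.25 CPM and Pdcd4 from 34.3 ± 7.51 to 62.8 ± 10.7 CPM (SD, n = 3 each). Eif4e2 did not pass without N6L culture 3, nor Eif4a3 with the adjustment for GC content and length. In the polysomes only Mknk2, a kinase of eIF4E, passed (0.62, SE 0.18, adjusted p = 0.0411 by edgeR), against 9.67% of all genes. Mknk2 did not pass without N6L culture 3. With the adjustment for GC content and length, Mknk2 was higher and 5 partners (Eif4a3, Larp1, Pabpc1, Pabpc4 and Rptor) were lower in the polysomes, where 10.1% of all genes were higher and 10.3% lower.

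For polysome against cytoplasm in N6L cultures, 8 of the 21 partners were lower in the polysomes and 0 higher by edgeR, against 20.6% and 18.4% of all genes. An unadjusted p under 0.05 was reached by 12, against 49.6% of all genes, and DESeq2 called 8 lower and 1 higher, against 21.2% and 22.3%. The 8 lower by edgeR were Ddx3x (-1.35), Gigyf2 (-1.32), Pabpc1, the poly(A)-binding protein (-1.0), Pdcd4 (-0.93), Mtor (-0.84), the S6 kinase Rps6kb1 (-0.83), Cyfip1, an eIF4E-binding protein (-0.75), and Larp1, a regulator of TOP mRNAs (-0.73). Without N6L culture 3 there were 5 (8.64% of all genes), namely Ddx3x, Gigyf2, Mtor, Pabpc1 and Rps6kb1. With the adjustment for GC content and length, 6 were lower (9.99% of all genes), Cyfip1 and Rps6kb1 losing their calls, and 3 were higher, Eif4e2, Paip2 and Paip2b (12% of all genes). In NT cultures 0 of 21 passed by edgeR and 1 by DESeq2 (Pabpc1), against 0.209% and 1.97% of all genes. At an unadjusted p under 0.05 there was 1, against 13.4% of all genes. For the TI, 0 of 21 passed by edgeR or DESeq2, against 0% of all genes by either. An unadjusted p under 0.05 was reached by 4, against 7.73% of all genes.

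The genes closest to a member over the 12 libraries were found by the root mean square difference of log2 CPM, each gene centred on its mean, among 8949 other genes with at least 10 CPM. For Eif4ebp1, whose own root mean square deviation was 0.65, they were Fuom (0.08), Dgcr6 (0.09) and Ndufb9 (0.09). For Eif4g1 (0.34) they were Cdc42bpb (0.05), Mcm3ap (0.06) and Hdlbp (0.06). For Eif4e (0.23) they were Rab9 (0.08), Lrrc57 (0.08) and Eri1 (0.09), and for Eif4a1 (0.12) Tomm34 (0.05), Gcdh (0.06) and Adprm (0.06). The points share libraries and depth, and the likeness is a description.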

How the data were processed

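Per the labels and the study's methods, the authors purified polyadenylated RNA, prepared strand-specific libraries, mapped reads to mm10 using STAR and obtained gene counts using HTSeq (version 0.5.3 in the submitters' processing notes). The deposited values are raw counts of 50600 genes in 48 files, 4 technical replicates of each of 12 libraries. Not given in the sources used here are the annotation release, the strand option and the handling of reads with several positions. A processed pseudogene of the helicases, Eif4a-ps4, had 66 to 155 counts a library.

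Technical replicates were summed (chi-square over degrees of freedom 1.02 to 1.04 in each library). Conflicting technical replicates differed from the remaining replicate of culture 2 by 1.01 to 1.04 and from culture 1 by 12.0 to 12.1. Symbols, positions and lengths came from GENCODE vM21, in which 50376 genes were found, and coding stretches were translated with Biopython. After filterByExpr and TMM scaling, edgeR 4.0.16 was used (R 4.3.3, glmQLFit and glmQLFTest, 4 group means, all 12 libraries, no block), with Benjamini-Hochberg adjustment over 13889 genes and a limit of 0.05. Values per culture are log2 CPM with a prior count of 2. Lengths per kilobase are the union of annotated exons, which is as long as a single transcript or longer. The adjustment for GC content and transcript length used this length and the GC content pooled over all annotated transcripts of a gene. DESeq2 1.42.0 was the alternative tool, and the fit was tested on simulated data.

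Within a culture both fractions stem from the same lysate, which pairs them. The correlation of their deviations from group means was 0.364 to 0.645 in NT and 0.0368 to 0.229 in N6L cultures. Between fractions of different cultures it was -0.449 to 0.122 in NT and -0.279 to 0.189 in N6L cultures, so the pairing shows less clearly with N6L. The reported fit leaves this pairing out, since the methods name no block, so its errors and p-values for the ratios and the TI are unpaired. The block by culture was an alternative. NT and N6L cultures share only numbers. Whether cultures were grown on separate days is not given, so p-values measure the spread between these cultures.

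Genes named were all 10 members, partners past the limit or needed for their role, and the 3 genes with the most similar pattern to Eif4e, Eif4a1, Eif4g1 and Eif4ebp1. Members and lists were chosen with earlier results of these data known. Alternatives were other scalings and filters, DESeq2, technical replicate a alone, the conflicting replicates left out, each culture left out, the 2 groups alone, length and GC content, and blocks. Protein measurements were not analysed here.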

Additional observations from a re-analysis of the deposited data

Results flagged for a closer look

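Groups of 3 libraries are too small for a test of single libraries that stand apart. Between treatments, Eif4b was singled out by the sign of its log2 polysome-to-cytoplasm ratio. This ratio was above 0 in 3 of 3 NT cultures (mean 0.14) and below 0 in 3 of 3 N6L cultures (mean -0.21). How many of all genes tested change sign in this way was not counted, so the pattern cannot be called unusual. For 29.7% of all genes tested, N6L and NT ratios did not overlap. Where 0 lies also depends on the scaling. With library totals alone, the median of all genes was -0.04 in NT and -0.11 in N6L cultures. The estimates of Eif4b were then 0.07 and -0.33, so their signs were kept. The test of the difference itself, the TI, did not pass (index -0.35, SE 0.24, adjusted p = 0.568 by edgeR, and adjusted p from 0.204 to 0.996 over its 16 alternatives).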

How the results depend on the processing

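Of 820 values of single members under alternatives, 778 kept their call, 25 gained one and 17 lost one. In 17 the direction turned by over 1 SE or past the limit, 2 of them gaining a call and 2 losing one. In the cytoplasm, the number of members passing was 2 and became 4 without a filter on low counts (17% of all genes) or in a fit of the 2 groups alone (42.2%), with Eif4a2 and Eif4g1 added, and 5 (32.1%) with the adjustment for GC content and transcript length. In the polysomes it was 0 and became 1 without a filter (Eif4ebp1, 6.66% of all genes) and 2 with the same adjustment (Eif4ebp1 and Eif4g3, 20.5%). For polysome against cytoplasm in NT cultures it was 0 and became 1, Eif4g3, without a filter (2.5% of all genes) or with the 2 groups alone (1.06%). With 1 culture left out, the number ran from 1 to 2 in the cytoplasm (9.24% to 28.7% of all genes) and 0 to 1 in the polysomes (1.04% to 11.2%). It ran from 0 to 1 for the NT ratio (0% to 2.38% of all genes), 2 to 6 for the N6L ratio (8.22% to 41.8%) and 0 to 0 for the TI (0% to 0.00709%).

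The replicate block by culture number gave 1 member in the polysomes (Eif4ebp1, -0.62, adjusted p = 0.0465 by edgeR, 9.76% of all genes). These samples share only a number, whose deviations correlated by 0.00756 to 0.296 between treatments. The block by culture, a true pairing, added Eif4a1 to the N6L ratio and changed no other call. The adjustment for GC content and length turned 3 cytoplasmic estimates, of Eif4ebp2 (-0.095), Eif4g2 (-0.13) and Eif4g3 (-0.052). For the NT ratio it turned Eif4a2 (0.33), Eif4e (0.28) and Eif4g2 (0.14), with the block 0.33, 0.29 and 0.16. For the N6L ratio it turned Eif4a2 (0.10), Eif4e (0.42) and Eif4g2 (0.11), with the block 0.10, 0.42 and 0.11, and with both Eif4b passed as well (-0.23, adjusted p = 0.0298 by edgeR). For the TI it turned Eif4e (0.14, with the block 0.13) and moved Eif4g2 from -0.53 to -0.03 (with the block -0.04). The cause was not tested.

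Log2 differences between treatments of the ratios between members ran, with 1 culture left out, from 0.64 to 1.06 (Eif4a2 to Eif4a1), -0.19 to 0.02 (Eif4g3 to Eif4g1), -0.28 to 0.05 (Eif4g2 to Eif4g1), -1.27 to -0.81 (Eif4ebp1 to Eif4e) and 1.09 to 1.34 (Eif4ebp2 to Eif4ebp1) in the cytoplasm. Scaling by library totals moved the median of all genes to 0.19 in the cytoplasm, 0.09 in the polysomes and -0.11 for the N6L ratio. The lowest count of a member in a library was 528, and Eif4ebp3, at 0 to 8 counts, did not pass the filter.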
